A study of Mus musculus with 36 samples.

Results

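The question was whether 2 transgenes, MMSET and Ikk2ca, changed gene expression in plasma cells by more or less when combined than their separate effects add up to. It was asked in the MMSET (M) cohort of a mouse study of multiple myeloma, whose 18 libraries, of 36 in the series, form a 2 by 2 design: Control(M), MMSET and Ikk2ca(M) with 4 libraries each, and MMSET-Ikk2ca, which carries both transgenes, with 6. All were plasma cells of C57/BL6 mice, sorted from bone marrow as positive for a reporter, CD138 and TACI, with 2000 cells per library. Neither the age of the mice nor the promoter or Cre line that switches on each transgene is given in the sources used here, and nothing in the labels ties each library to an animal of its own. The p-values therefore describe the spread between libraries, which may be partly technical.

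MMSET, encoded by Nsd2 in the mouse, is a histone methyltransferase that places dimethyl marks on histone H3 (H3K36), and a chromosomal translocation overexpresses it in a subgroup of human myelomas. Ikk2ca is a constitutively active form of IKK2, the kinase that marks IkB proteins for destruction and so frees NF-kB transcription factors to enter the nucleus. NF-kB signalling supports the survival of plasma cells and is often activated in myeloma.

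For each of 15416 genes tested, of 54203 summed, the interaction was the log2 difference between MMSET-Ikk2ca and MMSET minus the log2 difference between Ikk2ca(M) and Control(M). It is 0 where the fold changes of the single transgenes multiply, below 0 where the cells with both had less RNA of a gene than that product, and above 0 where they had more. Levels are in CPM, reads scaled to library size and composition. A gene was called where the Benjamini-Hochberg adjusted p of edgeR's quasi-likelihood test over all genes was under 0.05, and the standard error (SE) is the absolute log2 value divided by the square root of the test's F. In bulk RNA, fewer cells of a type and less RNA per cell cannot be told apart.

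Libraries held 54.1 to 78.7 M estimated reads, and immunoglobulin genes took 43.9% to 71.4% of them, so that 16.2 to 34.9 M remained for the rest. The lowest immunoglobulin share, 43.9%, was that of MMSET-Ikk2ca 6, and without that library 17 genes were called in place of 15. MMSET 1 stood apart by its neutrophil RNA (given with the gene Anxa2), and without it 31 genes were called, 14 of the 15 among them. All 8 defining plasma cell markers were measured, and Sdc1, which encodes CD138, stood between 295 and 632 CPM and Tnfrsf13b, which encodes TACI, between 155 and 319 CPM in the 18 libraries. Of the 8, 0 were called in the interaction by edgeR, DESeq2 or limma voom (0 had an unadjusted p under 0.05, median -0.06), but 3 were lower with both than in Control(M). These were Jchain, the joining chain of secreted IgA and IgM (28069 to 38180 against 1275 to 4150 CPM), Tnfrsf17, which encodes the survival receptor BCMA (44.9 to 73.7 against 6.28 to 22.6 CPM), and the secretory regulator Xbp1 (2328 to 3515 against 1464 to 2410 CPM, with adjusted p = 0.000623, 0.00164 and 0.0275). Jchain was already below all controls in MMSET (3936 to 21914 CPM) and in Ikk2ca(M) (3484 to 13386 CPM). So was Tnfrsf17 in MMSET (11.7 to 38.3 CPM), while in Ikk2ca(M) it overlapped the controls (28.6 to 58.9 CPM). Xbp1 overlapped the controls in both single groups. Of the 8 markers, 0 were called with either transgene alone. Nsd2 stood at 2.88, 4.30, 4.53 and 1.93 CPM in Control(M), at 850.1, 754, 439 and 517 in MMSET, at 3.54, 2.14, 5.31 and 5.95 in Ikk2ca(M), and between 178 and 617 with a median of 299.5 in MMSET-Ikk2ca. Every library labelled with MMSET was above every library without it, and the Nsd2 interaction of -1.20 (SE 0.524, adjusted p = 0.445) did not pass. Ikbkb, the gene of IKK2, stood at 16.5 to 35.3 CPM in Control(M), 10.7 to 27.2 in MMSET, 51.6 to 73.0 in Ikk2ca(M) and 44.8 to 61.8 in MMSET-Ikk2ca, with an interaction of 0.44 (SE 0.337, adjusted p = 0.739). Reads of a transgene cannot be told apart from those of the mouse gene here. Ccnd1, the gene targeted in the other cohort, had an interaction of -0.90 (adjusted p = 0.966).

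Few genes passed edgeR's test for a departure from additivity (DESeq2 called 380), and a gene that did not pass was not shown to be additive. The interaction was called in 15 genes, 0.0973% of those tested, 3 of them higher (0.0195%) and 12 lower (0.0778%), and 14 departed by at least 2-fold. At an unadjusted p under 0.05 there were 1605 genes, 729 higher (4.73% of those tested) and 876 lower (5.68%), and the median interaction over all genes was -0.002. In the same fit, MMSET alone differed from Control(M) in 100 genes (0.649%), Ikk2ca alone in 100 (0.649%) and both together in 1065 (6.91%). These 3 comparisons share the Control(M) libraries with each other and with the interaction. Of the 15 genes, 9 fell short of the sum of the single effects, 5 had a fitted value with both that was opposite in sign to that sum, and 1, H2-Eb2, went beyond it. Among those 5 the difference of both from Control(M) passed for Fgf11 and Anxa2, and not for Tg, Zcwpw1 and Ccdc141 (adjusted p = 0.979, 0.449 and 0.456). One of the 15, Rpl15-ps3, is a ribosomal protein pseudogene whose reads may belong to near-identical copies, and it is not described further.

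**Figure D1:**
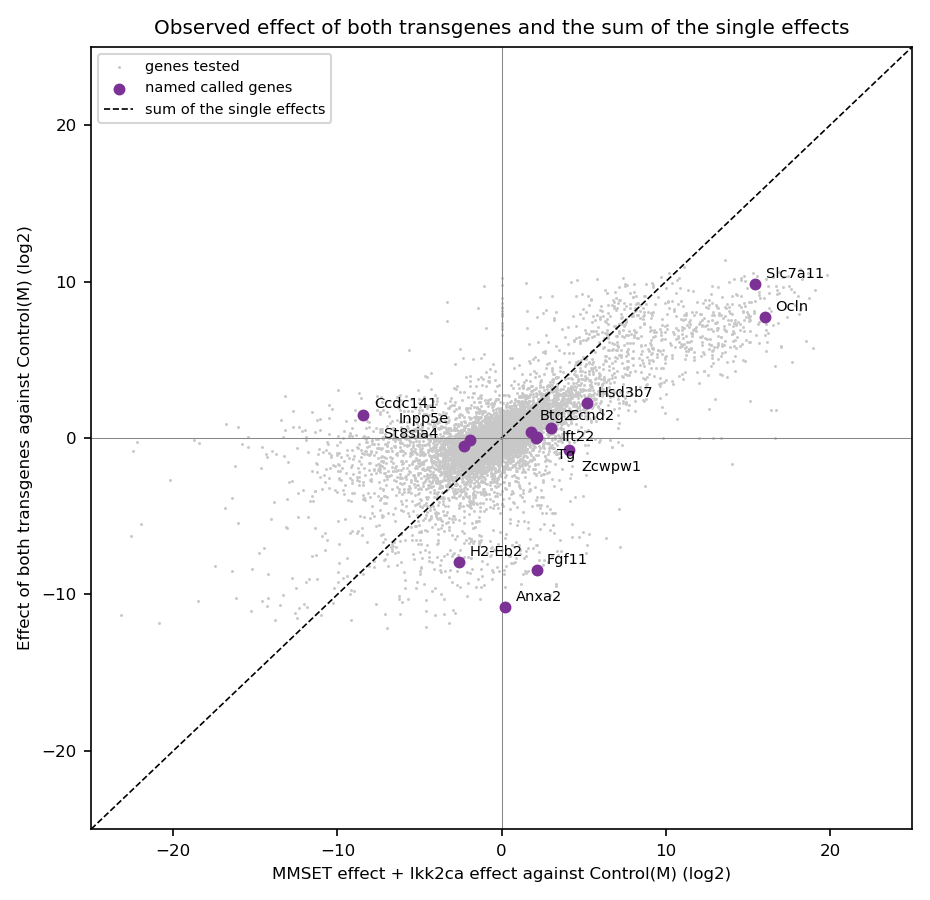
Effect of both transgenes against Control(M) (vertical axis, log2) plotted against the sum of the MMSET effect and the Ikk2ca effect (horizontal axis, log2) for the 15416 genes tested (grey) and the 14 named called genes (purple). The dashed line marks effects that add up. Slc7a11, Ocln and Hsd3b7 lie to the right below the line, Fgf11 and Anxa2 far below it, and Ccdc141 far above it. The Control(M) libraries enter both axes, and the horizontal one 2 times, once for each single effect.

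The interaction with the smallest adjusted p was that of Hsd3b7, an enzyme of bile acid synthesis that also acts on oxysterols, which guide B lineage cells (chromosome 7, 127800604 to 127803802, plus strand, GRCm38). Each transgene alone raised it to about the level it had with both. It stood at 4.66, 6.04, 3.76 and 6.30 CPM in Control(M), at 20.6, 42.9, 45.4 and 39.1 in MMSET, at 19.3, 25.8, 29.3 and 32.4 in Ikk2ca(M), and between 17.1 and 35.8 with a median of 23.9 in MMSET-Ikk2ca. All 14 transgenic libraries were above all 4 controls, while the 3 transgenic groups overlapped. Against Control(M) it rose by 2.83 on the log2 scale with MMSET (SE 0.284, adjusted p = 2.87e-05), by 2.36 with Ikk2ca (SE 0.279, adjusted p = 0.000278) and by 2.24 with both (SE 0.264, adjusted p = 5.45e-05). The product of the single effects would be 190.5 CPM, and the interaction was -2.96 (SE 0.362, adjusted p = 0.0019). Gm49388, a protein-coding model on the same strand, overlaps Hsd3b7, so the division of reads between them is uncertain.

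Promoters from RefSeq (build GRCm38.p6) were found for 12 of the 14 named genes, 15 start sites in all, and the 250 bases before each start were searched on both strands for 3 motifs. These were the consensus site of NF-kB (kappaB), the antioxidant response core TGACNNNGC and the CEBP-ATF element TGATGNAA. The kappaB consensus was present in 1 of the 12 genes, Hsd3b7, against 7.25% of the 32851 RefSeq promoters. TGACNNNGC was present in 0 of the 12, against 10.2%, and TGATGNAA in 1 of the 12, Slc7a11, against 3.45%. A match is a match of letters, and no binding was measured. The Hsd3b7 stretch, shown because this gene had the smallest adjusted p, is on the plus strand at chr7:127800359-127800608, and the capitals mark the kappaB match, 189 bases before the start, which reads as a match on both strands:
Hsd3b7: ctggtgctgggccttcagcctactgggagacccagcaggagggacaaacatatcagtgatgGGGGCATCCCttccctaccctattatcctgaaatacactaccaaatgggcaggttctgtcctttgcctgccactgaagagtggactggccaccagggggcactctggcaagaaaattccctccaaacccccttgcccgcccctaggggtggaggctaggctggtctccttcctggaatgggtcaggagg

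Slc7a11, the cystine importer subunit xCT that supplies cysteine for glutathione (chromosome 3, 49892526 to 50443614, minus strand), was nearly silent in controls and present in every transgenic library. It stood at 0.0159, 0.0164, 0.0499 and 0.0164 CPM in Control(M), where the 4 libraries held 6 reads in all, at 9.74, 7.68, 17.6 and 4.73 in MMSET and at 3.23, 1.11, 1.85 and 6.46 in Ikk2ca(M). In MMSET-Ikk2ca it ran from 11.1 to 40.2 CPM with a median of 23.5. The cells with both transgenes were above all Control(M) and all Ikk2ca(M) libraries and overlapped the MMSET libraries. It rose against Control(M) by 8.56 with MMSET (SE 0.742, adjusted p = 4.08e-06), by 6.90 with Ikk2ca (SE 0.717, adjusted p = 0.000151) and by 9.86 with both (SE 0.758, adjusted p = 5.71e-07). The interaction of -5.60 (SE 0.822, adjusted p = 0.00777) is set against a product of 1275 CPM, which rests on those 6 control reads. On the linear scale of CPM the direction turned, since the mean with both exceeded the sum of the separate rises by 11.4 CPM. The promoter stretch of Slc7a11, shown because it is the promoter with TGATGNAA matches, is on the minus strand at chr3:50443614-50443863. Its capitals mark 2 matches to TGATGNAA, on opposite strands, the first starting 66 bases before the start:
Slc7a11: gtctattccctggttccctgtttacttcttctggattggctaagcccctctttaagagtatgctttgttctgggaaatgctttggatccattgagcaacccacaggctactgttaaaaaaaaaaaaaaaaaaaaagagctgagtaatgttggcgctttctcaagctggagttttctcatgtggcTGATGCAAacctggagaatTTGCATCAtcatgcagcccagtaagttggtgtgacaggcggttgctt

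**Figure D2:**
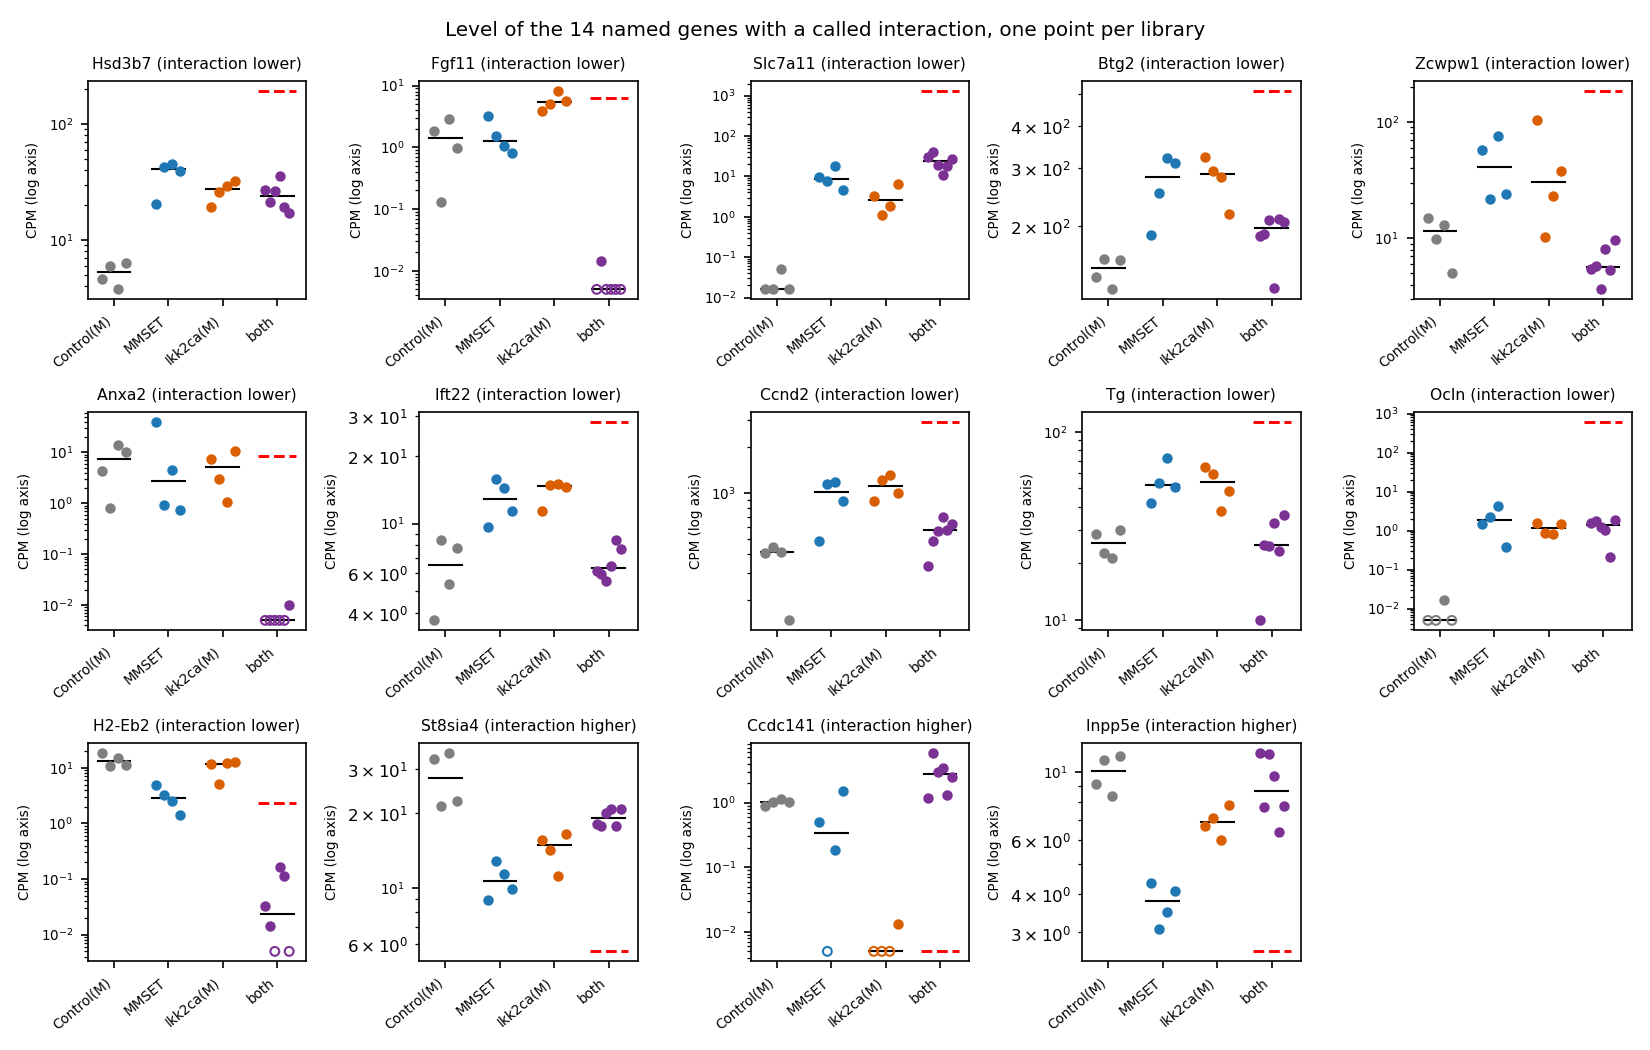
Level in CPM (log axis) of the 14 named genes with a called interaction, 1 panel per gene and 1 point per library in Control(M), MMSET, Ikk2ca(M) and MMSET-Ikk2ca (labelled both). Black bars are group medians, open circles at the bottom are libraries with 0 reads, and the red dashed bar is the product of the single effects. The points of MMSET-Ikk2ca lie below that bar for the 11 genes with a lower interaction and above it for St8sia4, Ccdc141 and Inpp5e.

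Btg2, an antiproliferative gene activated by p53 (chromosome 1, 134075170 to 134079120), stood at 139.9, 159, 129 and 158 CPM in Control(M), at 188, 252, 322 and 309 in MMSET and at 323, 293, 280.4 and 217 in Ikk2ca(M). With both it ran from 129.8 to 209.5 CPM with a median of 198, overlapping the controls and lying below all Ikk2ca(M) libraries. It rose with MMSET (0.87, SE 0.181, adjusted p = 0.0273) and with Ikk2ca (0.93, SE 0.181, adjusted p = 0.0174), the 0.37 with both did not pass (adjusted p = 0.199), and the interaction was -1.44 (SE 0.242, adjusted p = 0.025).

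Ccnd2 encodes cyclin D2, which drives entry into the cell cycle and is a known NF-kB target (chromosome 6, 127125162 to 127152193). It stood at 410.2, 445, 417 and 148 CPM in Control(M), at 486, 1151, 1194 and 894 in MMSET and at 895, 1213, 1312 and 1008 in Ikk2ca(M). With both it ran from 336 to 701 CPM with a median of 573. Each single group was above every control, whereas the libraries with both overlapped the controls and were below every Ikk2ca(M) library. The rises of 1.39 with MMSET (SE 0.310, adjusted p = 0.044) and 1.64 with Ikk2ca (SE 0.312, adjusted p = 0.0157) passed, the 0.63 with both did not (adjusted p = 0.193), and the interaction was -2.40 (SE 0.413, adjusted p = 0.025). A pair of antisense gene models overlaps Ccnd2, and the counts carry no strand.

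Ift22, a small GTPase of intraflagellar transport, and Tg, which encodes thyroglobulin, the thyroid hormone precursor, were higher with either transgene alone than with none or both. Ift22 stood at 3.71 to 8.43 CPM in Control(M), 9.69 to 15.8 in MMSET, 11.3 to 14.9 in Ikk2ca(M) and 5.57 to 8.48 in MMSET-Ikk2ca (interaction -2.07, SE 0.356, adjusted p = 0.025). Tg stood at 21.3 to 30.1 CPM in Control(M), 42.0 to 72.3 in MMSET, 38.0 to 65.1 in Ikk2ca(M) and 9.92 to 35.9 in MMSET-Ikk2ca (interaction -2.15, SE 0.383, adjusted p = 0.0313). For both genes the single groups lay above all controls and above all libraries with both. None of the single effects passed alone: 1.02 and 1.14 for Ift22 (adjusted p = 0.0951 and 0.0539) and 1.09 and 1.04 for Tg (adjusted p = 0.0987 and 0.12). Sla, a lymphocyte adaptor gene on the opposite strand, lies within the span of Tg, and their reads cannot be told apart where exons overlap.

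Zcwpw1, a reader of methylated histone H3 that is known from meiosis, had its lowest group median in the cells with both. Its levels were 14.9, 9.92, 13.1 and 5.05 CPM in Control(M), 57.6, 21.97, 75.8 and 24.1 in MMSET, 104, 10.2, 23.01 and 37.9 in Ikk2ca(M), and 3.64 to 9.70 with a median of 5.62 in MMSET-Ikk2ca. The libraries with both were below all 8 libraries with 1 transgene and overlapped the controls. Neither single difference passed (2.06 with MMSET, adjusted p = 0.14; 2.03 with Ikk2ca, adjusted p = 0.158), and the interaction was -4.85 (SE 0.798, adjusted p = 0.025). Pilra overlaps it on the opposite strand.

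Ocln, which encodes the tight junction protein occludin, was detected in every transgenic library and in 1 of 4 controls. It had 1 read over the 4 Control(M) libraries (exact 95% Poisson interval 0.0253 to 5.57 reads), against 1.43, 2.204, 4.39 and 0.373 CPM in MMSET, 1.56, 0.849, 0.828 and 1.46 in Ikk2ca(M), and 0.215 to 1.84 with a median of 1.41 in MMSET-Ikk2ca. The 3 transgenic groups overlapped. The interaction passed (adjusted p = 0.0316), and from pooled reads it was -8.92, with -14.2 and -6.44 at the bounds of the interval for that 1 read, which covers counting error only.

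RNA of 3 genes was nearly absent from the cells with both transgenes. Fgf11, an intracellular fibroblast growth factor homologue (chromosome 11, 69796068 to 69801857), stood at 1.86, 0.131, 2.88 and 0.982 CPM in Control(M), at 3.26, 1.499, 1.07 and 0.820 in MMSET and at 3.83, 5.02, 8.05 and 5.68 in Ikk2ca(M). The 6 MMSET-Ikk2ca libraries held 1 read in all, in MMSET-Ikk2ca 2. Each of the 12 other libraries was above all 6, and the pooled level in Control(M) was 648 times that in MMSET-Ikk2ca (116 to 25598 times at the bounds of the interval for 1 read). The fall with both passed (adjusted p = 7.92e-05), the single differences of 0.18 with MMSET (adjusted p = 0.973) and 1.95 with Ikk2ca (adjusted p = 0.35) did not, and the interaction passed (adjusted p = 0.00284). From pooled reads the interaction was -11.5, with -16.8 and -9.01 at those bounds.

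Anxa2, which encodes the membrane-binding protein annexin A2, stood at 4.39, 0.804, 14.1 and 10.2 CPM in Control(M), at 38.9, 0.909, 4.57 and 0.727 in MMSET and at 7.504, 3.03, 1.07 and 10.8 in Ikk2ca(M). The MMSET-Ikk2ca libraries held 1 read in all, and every other library was above them. The 0.61 with MMSET and -0.40 with Ikk2ca did not pass (adjusted p = 0.902 and 0.963), while the fall with both did (adjusted p = 0.000255). Its interaction passed (adjusted p = 0.025) and was -12.1 from pooled reads, with -17.4 and -9.59 at the bounds of the interval for 1 read. The level of 38.9 CPM was in MMSET 1, the library with the most neutrophil RNA, and without that library Anxa2 was still called.

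Neutrophil markers were also low in MMSET-Ikk2ca, where they overlapped Ikk2ca(M). Of 16 listed, 14 were measured, and their summed level was 42.2 to 219 CPM in Control(M), 52.1 to 3029.6 in MMSET, where the highest value was that of MMSET 1, 6.96 to 497 in Ikk2ca(M) and 1.71 to 19.1 in MMSET-Ikk2ca. Ctsg and Prtn3 were at 0 reads in all 6 libraries with both, but they were also scarce elsewhere. Ikk2ca(M) held 1 read of Ctsg and 0 of Prtn3, and Control(M) held 50 and 40. Other markers were still present with both, such as S100a8 with 891 reads and S100a9 with 468. All 14 had a negative interaction, 9 at an unadjusted p under 0.05 and 0 called by edgeR (4 by DESeq2, 0 by limma voom), with a median of -6.91 against -0.002 for all genes, and the median was -3.74 without MMSET 1. Levels of S100a8 ranged from 2.95 to 1092 CPM in the groups other than MMSET-Ikk2ca and from 0.284 to 4.70 in that group. The part of neutrophil RNA in the Anxa2 value was not tested.

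H2-Eb2, a beta chain gene of the MHC class II family, was the 1 called gene beyond the sum. It stood at 18.1, 10.6, 14.8 and 11.3 CPM in Control(M), at 4.98, 3.18, 2.52 and 1.44 in MMSET, at 11.6, 5.05, 12.03 and 12.6 in Ikk2ca(M), and between 0 and 0.165 with a median of 0.0232 in MMSET-Ikk2ca. The libraries with both were below all 12 others. The -2.18 with MMSET and -0.41 with Ikk2ca did not pass (adjusted p = 0.181 and 0.93), the fall of both by 7.95 did (SE 0.778, adjusted p = 6.47e-06), and the interaction was -5.37 (SE 0.984, adjusted p = 0.0346). On the linear scale the departure was 0.398 CPM and opposite in sign, but the level expected from adding the separate changes was -0.344 CPM. No level can be negative, so this sign was fixed by the other groups and carries no information. H2-Eb1, a close relative, may share reads with H2-Eb2. In the list of MHC class II presentation, which does not hold H2-Eb2, 12 genes were measured and 6 were negative. Their median interaction was 0.19, and 0 had an unadjusted p under 0.05 or were called by edgeR, DESeq2 or limma voom. Of 7 measured mature B cell markers, 0 were called in the interaction by edgeR (2 by DESeq2, 0 by limma voom; 2 lower and 2 higher at an unadjusted p under 0.05). Their median interaction was 1.81, opposite in sign to that of H2-Eb2, with 2 of 7 negative, and their median against Control(M) was -5.76 with both, -2.21 with MMSET and -2.93 with Ikk2ca. Ms4a1, the gene of CD20, was at 22.5 to 70.8 CPM in the 6 libraries with both. The part of B cell RNA in the H2-Eb2 value was not tested.

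Another 3 genes departed upward. St8sia4, which builds polysialic acid chains on cell surface proteins (chromosome 1, 95587682 to 95667571), stood at 32.7, 21.2, 34.5 and 22.4 CPM in Control(M), at 8.92, 12.8, 11.4 and 9.90 in MMSET, at 15.6, 14.2, 11.2 and 16.5 in Ikk2ca(M), and at 17.6 to 20.7 with a median of 19.0 in MMSET-Ikk2ca. The libraries with both lay below all controls and above all libraries with 1 transgene. It fell by 1.36 with MMSET (SE 0.195, adjusted p = 0.00209) and by 0.95 with Ikk2ca (SE 0.193, adjusted p = 0.024), the -0.53 with both did not pass (adjusted p = 0.0711), and the interaction was 1.78 (SE 0.264, adjusted p = 0.00777).

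Inpp5e, a phosphoinositide phosphatase of the primary cilium, stood at 9.17, 10.96, 8.39 and 11.3 CPM in Control(M), at 4.35, 3.09, 3.49 and 4.10 in MMSET, at 6.67, 7.08, 6.02 and 7.80 in Ikk2ca(M), and at 6.37 to 11.5 with a median of 8.71 in MMSET-Ikk2ca. It fell by 1.404 with MMSET (SE 0.253, adjusted p = 0.0111), the -0.53 with Ikk2ca did not pass (adjusted p = 0.39), and the libraries with both overlapped the controls (interaction 1.80, SE 0.341, adjusted p = 0.0447). Pmpca overlaps it on the opposite strand. Ccdc141, a coiled-coil protein gene, was at 0.891 to 1.12 CPM in Control(M), 0 to 1.53 in MMSET and 1.19 to 5.76 in MMSET-Ikk2ca, and had 1 read over the 4 Ikk2ca(M) libraries. Its fall with Ikk2ca passed (adjusted p = 0.0193), as did the interaction (adjusted p = 0.0362), which was 10.4 from pooled reads, with 15.7 and 7.95 at the bounds of the interval for 1 read.

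Further genes with a higher interaction came close without passing. Irf8, a transcription factor of B and myeloid cells, stood at 26.5 to 85.6 CPM in Control(M), 11.7 to 58.0 in MMSET, 10.9 to 16.03 in Ikk2ca(M) and 33.0 to 69.9 in MMSET-Ikk2ca (interaction 3.01, SE 0.587, adjusted p = 0.052). It fell with Ikk2ca alone (-2.06, adjusted p = 0.033). Faah, a hydrolase of fatty acid amides, was higher in all 6 libraries with both (112 to 134 CPM) than in the 12 others (62.9 to 98.8 CPM), with an interaction of 0.88 (SE 0.174, adjusted p = 0.052). Lims1, an adaptor of integrin adhesions, had 0.99 (adjusted p = 0.0587), the histone demethylase Kdm3a 1.42 (adjusted p = 0.076) and the haem oxygenase Hmox1 2.86 (adjusted p = 0.0788). By limma voom, the interaction of Irf8 (adjusted p = 0.0105), the interaction of Faah (adjusted p = 0.0399) and the interaction of Lims1 (adjusted p = 0.0399) passed. In an edgeR fit of all 36 libraries of the series, the interaction of Faah passed (adjusted p = 0.0452). Those of Irf8, Lims1, Kdm3a and Hmox1 did not pass in that fit (adjusted p = 0.0574, 0.0941, 0.119 and 0.0574).

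Among 20 pathway lists, the called genes were spread thinly. Of 20 NF-kB subunits, IkB inhibitors and IKK components, 0 were called by edgeR, DESeq2 or limma voom (1 had an unadjusted p under 0.05), and the median interaction was -0.01, with Rela, an NF-kB subunit, at 0.59 (adjusted p = 0.467). Of 31 measured NF-kB targets, edgeR called Ccnd2, DESeq2 called 3 and limma voom 1, with a median of 0.01. Both medians were close to the -0.002 of all genes. By edgeR, Slc7a11 was the 1 called among 21 genes of the ATF4 and amino acid stress response (median 0.13; 1 by DESeq2, 0 by limma voom). Also by edgeR, Btg2 was the 1 called among 20 p53 targets (median -0.48, 13 negative, -0.70 without MMSET 2 and -0.21 without MMSET 3) and the 1 among 21 stress and immediate-early genes (median -0.86, 15 negative, but -0.18 without Ikk2ca(M) 4), and Ccnd2 the 1 among 22 genes of D-type cyclins, CDK4/6 and RB (median -0.31, -0.56 without Control(M) 4 and -0.18 without MMSET 4). DESeq2 called 2 in each of these 3 lists, and limma voom 1, 2 and 1. Anxa2 was the 1 called by edgeR (4 by DESeq2, 0 by limma voom) of 33 adhesion, migration and cytoskeleton genes (median -0.24, but -0.01 without MMSET 1). In the other 14 pathway lists, with 333 entries measured, 0 were called by edgeR, 16 by DESeq2 and 1 by limma voom. Among these entries 46 lower and 12 higher had an unadjusted p under 0.05. Of the 46, 15 were oxidative phosphorylation genes and 7 were genes of folding and secretion in the endoplasmic reticulum. Over all 15416 genes tested, DESeq2 called 380 and limma voom 33, and 5.68% were lower and 4.73% higher at such a p.

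Genes of the oxidative phosphorylation machinery, whose subunits build the respiratory chain and ATP synthase, had small interactions, mostly negative. Of 34 measured, 31 were negative (50.1% of all genes were), 15 were lower at an unadjusted p under 0.05 (5.68% of all genes were) and 0 were called by edgeR (4 by DESeq2, 0 by limma voom), with a median of -0.41 that stayed between -0.47 and -0.35 when any 1 library was left out. Their mean log2(CPM + 0.5) was 5.67 to 5.87 in Control(M), 5.84 to 6.24 in MMSET, 6.00 to 6.24 in Ikk2ca(M) and 5.88 to 6.02 in MMSET-Ikk2ca, so the groups with 1 transgene overlapped the group with both. Against Control(M) the list's medians were 0.23 with MMSET, 0.35 with Ikk2ca and 0.17 with both. Atp5j, a subunit of ATP synthase, had an interaction of -0.55 (SE 0.157, adjusted p = 0.203). Folding and secretion genes of the endoplasmic reticulum were negative in 24 of 31 (median -0.30, 0 called by edgeR, 2 by DESeq2, 1 by limma voom, and 7 with an unadjusted p under 0.05), with the disulfide isomerase Pdia4 at -0.80 (adjusted p = 0.157). By limma voom the interaction of Pdia4 passed (adjusted p = 0.0399).

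**Figure D3:**
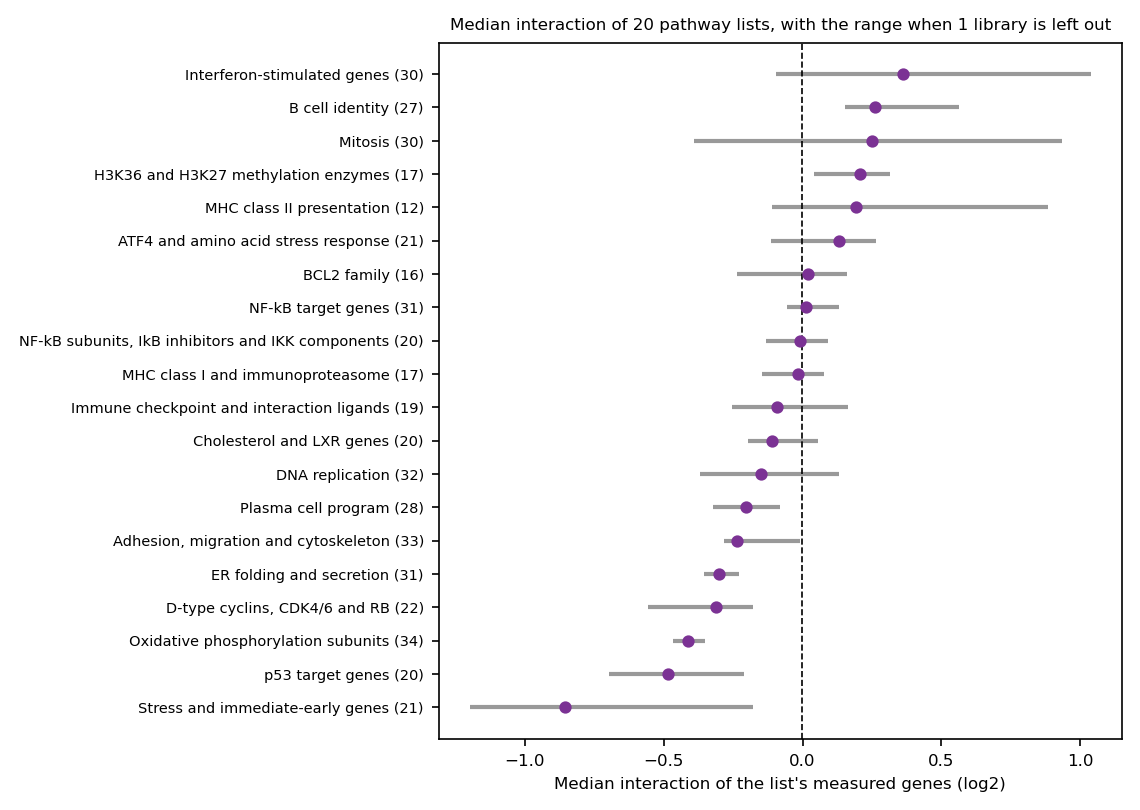
Median interaction (log2, points) of 20 pathway lists, with the number of measured genes in brackets; bars span the medians when any 1 of the 18 libraries is left out, and the dashed line is the median of all genes. Oxidative phosphorylation stays between -0.47 and -0.35, while interferon-stimulated genes span -0.10 to 1.04.

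For interferon-stimulated genes no departure as a group was shown. By edgeR 0 of 30 were called (2 by DESeq2, 0 by limma voom, 6 at an unadjusted p under 0.05: 4 higher and 2 lower). With 12 of 30 negative, the median was 0.36, or 0.55 with groups under 3 reads set to 3 reads, and it ran from -0.10 without Control(M) 3 to 1.04 without Ikk2ca(M) 2, and was 0.09 with Xist as a covariate. The list's medians against Control(M) were 0.996 with MMSET, 0.77 with Ikk2ca and 2.61 with both, and the mean log2(CPM + 0.5) was 3.20 to 4.69 in MMSET-Ikk2ca and 1.59 to 3.12 in the 12 other libraries. Irf7, the transcription factor that amplifies interferon responses, stood at 15.5 to 25.6 CPM in Control(M), 10.3 to 17.9 in MMSET, 11.3 to 24.4 in Ikk2ca(M) and 16.9 to 59.2 with a median of 50.7 in MMSET-Ikk2ca (interaction 2.03, SE 0.451, adjusted p = 0.103). Cd79a, which carries the signal of the antigen receptor, fell by 7.55 with both (SE 0.710, adjusted p = 1.83e-05), from 335 to 398 CPM in Control(M) to 0.382 to 4.66 CPM. Its interaction of -4.54 (SE 0.896, adjusted p = 0.0724) did not pass, and neither did that of the death gene Bcl2l11 (-1.97, adjusted p = 0.0761). In the edgeR fit of all 36 libraries, the interaction of Cd79a did pass (-4.54, SE 0.698, adjusted p = 0.00306). That of Bcl2l11 did not pass there (adjusted p = 0.196).

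**Figure D4:**
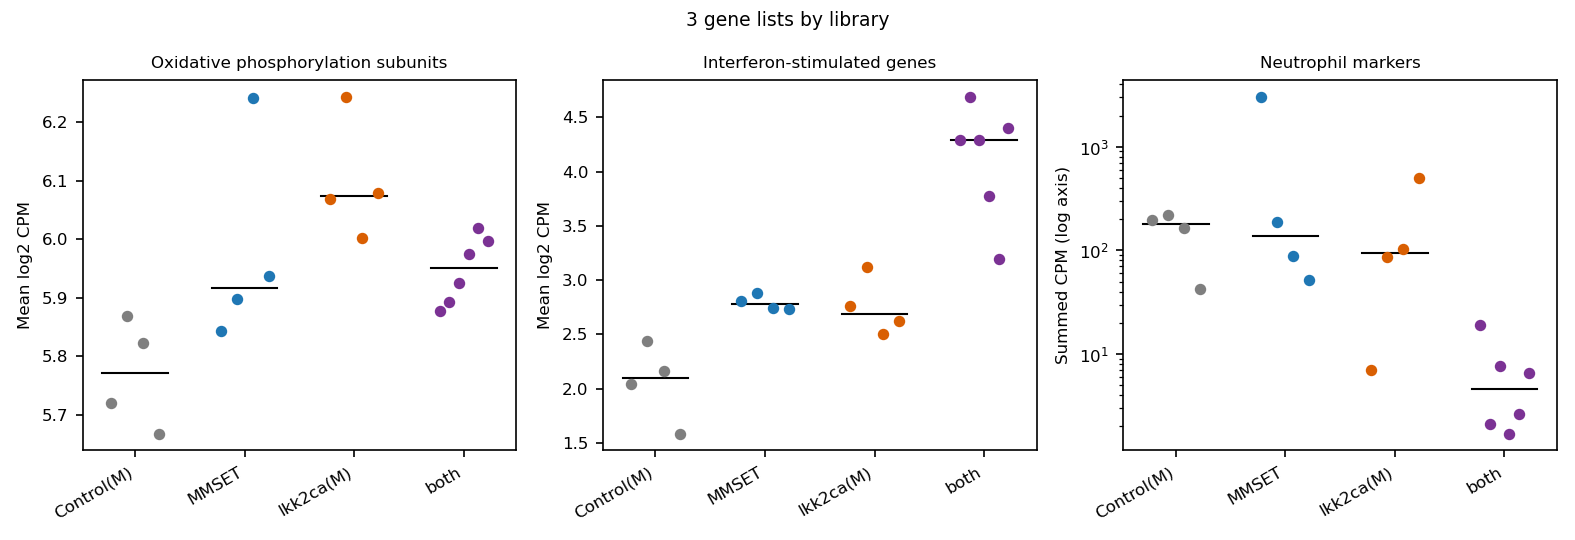
3 gene lists by library in the 4 groups (both is MMSET-Ikk2ca): mean log2(CPM + 0.5) of 34 oxidative phosphorylation subunits and of 30 interferon-stimulated genes, and summed CPM of 14 neutrophil markers on a log axis, with black bars at group medians. The interferon list is above all other libraries in the 6 libraries with both, and the neutrophil sum is highest in MMSET 1.

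The calls differed in how far they rested on single libraries. Hsd3b7, Fgf11, Slc7a11 and St8sia4 were called in each of the 18 fits that left out 1 library, with adjusted p of at most 0.0105, 0.0189, 0.0414 and 0.0414. Btg2 (at most 0.067) was lost without Control(M) 1 or 3, Ikk2ca(M) 1 or 2, or MMSET-Ikk2ca 2. Zcwpw1 (at most 0.067) was lost without any 1 of the controls or MMSET-Ikk2ca 2, and Anxa2 (at most 0.151) without Control(M) 1, 3 or 4, Ikk2ca(M) 2, or MMSET-Ikk2ca 2 or 6. Ift22 and Ccnd2 (at most 0.0704) were each called in 11 fits: both were lost without Control(M) 1 or 3, MMSET 2, Ikk2ca(M) 2 or 3, or MMSET-Ikk2ca 2, Ift22 also without Ikk2ca(M) 4 and Ccnd2 also without MMSET 3. Tg, Ocln and H2-Eb2 held in 7 fits each, Ccdc141 in 5 and Inpp5e in 3 (adjusted p at most 0.0869, 0.0966, 0.106, 0.102 and 0.106). All 5 were lost without any 1 of the controls, without Ikk2ca(M) 1, 2 or 4, and without MMSET-Ikk2ca 2. In addition, Tg and Ocln were lost without MMSET 2 or 3 or MMSET-Ikk2ca 3, H2-Eb2 without MMSET 2, Ikk2ca(M) 3 or MMSET-Ikk2ca 1, and Ccdc141 without MMSET 1 or 3, Ikk2ca(M) 3, or MMSET-Ikk2ca 3 or 6. Inpp5e was also lost without MMSET 2, 3 or 4, Ikk2ca(M) 3, or MMSET-Ikk2ca 1, 3 or 4. The sign of all 15 was the same in these fits.

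Xist, which marks female samples, exceeded 10 CPM in 2 of 4 Control(M), 3 of 4 MMSET, 4 of 4 Ikk2ca(M) and 3 of 6 MMSET-Ikk2ca libraries. It did not give a clear sex for every library. MMSET 2 was low in both Xist (1.75 CPM) and Y-linked RNA (0.50 CPM). MMSET-Ikk2ca 1 held 4.41 CPM of Xist and 12.8 CPM of Y-linked RNA, and MMSET-Ikk2ca 6 held 17.1 and 1.26 CPM. A fit that held Xist as a covariate called 5 genes, all among the 15: Hsd3b7, Fgf11, Slc7a11, St8sia4 and Ift22.

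The counterpart in the Ccnd1 (D) cohort, the interaction of Ccnd1 and Ikk2ca over 18 other libraries, differed from that of MMSET and Ikk2ca in 1 gene. In a fit of all 36 libraries, with 17116 genes tested, the difference between the interactions was called in 0.00584% of genes, namely Fgf11 (-11.02, SE 1.70, adjusted p = 0.00358). Fgf11 stood at 1.84 to 5.66 CPM in Control(D), 0.0562 to 4.26 in Ccnd1, 1.05 to 5.06 in Ikk2ca(D) and 1.64 to 2.85 in Ccnd1-Ikk2ca, so its RNA was present in all 6 libraries with that pair and its interaction there was 0.44 (SE 1.08). Hsd3b7 had -2.97 in cohort M and -0.04 in cohort D (SE 0.889 and 0.890), and neither the value in cohort M (adjusted p = 0.173) nor the difference (adjusted p = 0.519) passed in this fit. St8sia4 had 1.77 and -0.16 (SE 0.380 and 0.373, adjusted p of the difference = 0.237), and Slc7a11 -5.61 and 3.347 (SE 1.44 and 1.60, adjusted p of the difference = 0.199). The Slc7a11 value of cohort D rests on 20 reads in Control(D), all in Control(D) 3, and 5 reads in Ccnd1. In cohort D, 0 genes were called by edgeR in this fit and 1135 had an unadjusted p under 0.05, and in cohort M 6 were called and 1996 had such a p. For the other named genes a difference between the cohorts was not shown.

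**Figure D5:**
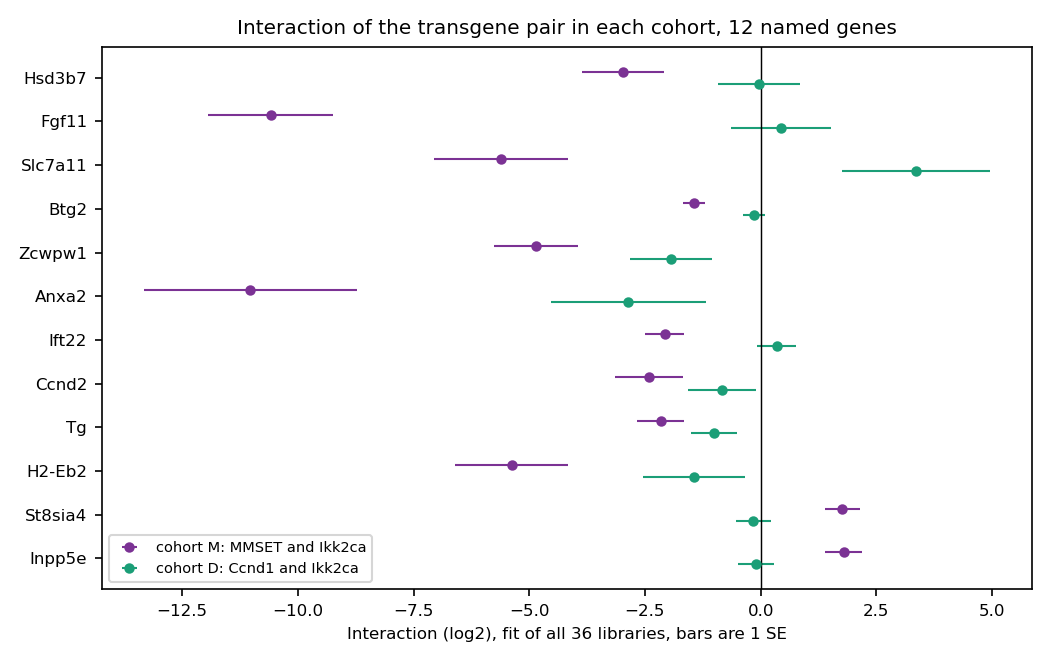
Interaction (log2, points) with 1 SE (bars) from the fit of all 36 libraries, for 12 of the named genes, in cohort M (MMSET and Ikk2ca, purple) and cohort D (Ccnd1 and Ikk2ca, green). Ocln and Ccdc141, at 0 reads in a group of cohort D, are left out, and the values of Fgf11 and Anxa2 in cohort M rest on groups with 1 read. The values of Slc7a11 rest on 6 reads in Control(M), and on 20 in Control(D) and 5 in Ccnd1. Fgf11 is at -10.6 in cohort M and 0.44 in cohort D.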

How the data were processed

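RNA of 2000 sorted cells per library was copied with an oligo-dT primer and template switching, amplified and tagged with Nextera XT, per the labels' protocols. No molecular identifiers are described, and copies made by PCR are counted as reads. Per the submitters' processing notes, bcl2fastq 2.20.0.422, Salmon 1.3.0, DESeq2 1.32.0 and the build GRCm38 were used. The authors deposited 1 Salmon table per library holding, per the file headers, Salmon's estimated counts and TPM of each transcript. TPM was used only as a second unit for the targeted genes.

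The deposited estimated counts were summed to genes with GENCODE M21 names (0.0658% to 0.134% of reads in the 18 libraries matched no gene) and rounded. edgeR 4.0.16 (R 4.3.3) was used with TMM scaling, filterByExpr, a robust quasi-likelihood fit of 1 mean per group over 18 libraries, and the interaction as a contrast. The script was tested on simulated counts. Where a group held 1 to 3 reads, the interaction was also taken from pooled reads with an exact Poisson interval. Alternatives were DESeq2 1.42.0, DESeq2 size factors, limma 3.58.1 (voom with quality weights), no filter, immunoglobulin genes left out, the replicate number as a block, replicates 1 to 4, all 36 libraries, Xist as a covariate, each library left out, and the linear scale. Ribosomal and mitochondrial lists were added after the data were seen. Python 3.11.15, pandas 2.3.3, numpy 2.4.6 and matplotlib 3.10.9 were used for sums and plots.

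Named genes were the targeted genes, up to 12 called genes per direction by size, non-called genes by the smallest p, to fill each direction to 8 (average log2 CPM from 1 up), and from each list the called members or the 1 with the smallest p. Unnamed models, immunoglobulin segments, Y-linked genes, Xist and pseudogenes were left out, and not all genes the rule allows are described. Marker genes outside this rule (Ms4a1, S100a9, Ctsg, Prtn3, Sdc1, Tnfrsf13b, Jchain, Tnfrsf17) were picked after their values were seen. The gene lists, groups and tests were chosen with earlier results of these data known, so no count over a list is independent support.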

Additional observations from a re-analysis of the deposited data

Results flagged for a closer look

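Single libraries stood apart from the rest of their group in 12 of the 72 groups of values checked, by Dixon's gap ratio at the 95% level, where chance gives about 1 in 20. Higher than the rest were Ikbkb in Ikk2ca(M) 3 (73.0 CPM), Ccnd1 in Control(M) 3 (0.982 CPM) and Anxa2 in MMSET 1 (38.9 CPM). Lower than the rest were Ccnd2 in Control(M) 4 (148 CPM), Ift22 in Ikk2ca(M) 1 (11.3 CPM), Btg2 in MMSET-Ikk2ca 4 (129.8 CPM) and H2-Eb2 in Ikk2ca(M) 2 (5.05 CPM). A few reads set the other 5: Slc7a11 in Control(M) 3 (0.0499 CPM), and 1 read each for Ocln in Control(M) 3 (0.0166 CPM), Anxa2 in MMSET-Ikk2ca 6 (0.0102 CPM), Fgf11 in MMSET-Ikk2ca 2 (0.0141 CPM) and Ccdc141 in Ikk2ca(M) 4 (0.0131 CPM).

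The interaction of Fgf11 differed between the cohorts by a test of the difference itself (fitted difference -11.0 on the log2 scale, adjusted p = 0.00358 by edgeR). The fitted size depends on the value that edgeR assigns to a group with 1 read, and it was -10.3 with that group set to 3 reads.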

How the results depend on the processing

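The number of called genes moved with the method, while the 15 called genes kept their sign under every alternative fitted on the log2 scale. DESeq2 called 380 genes, limma voom 33, and edgeR 24 with immunoglobulin genes left out, 6 in a fit of all 36 libraries and 5 with Xist as a covariate. Of the 15 genes, DESeq2 called 15, limma voom 11 and the fit of 36 libraries 3. DESeq2 size factors, no filter and replicates 1 to 4 gave 18, 12 and 13. With 1 library left out the count ran from 4 to 31: 5, 4 and 9 without Control(M) 1, 3 and 4, 31 and 8 without MMSET 1 and 2, 6 without Ikk2ca(M) 2, and 4 and 25 without MMSET-Ikk2ca 2 and 4. The cause of these shifts was not tested. With the replicate number as a block, 3 genes were called, of which 1, Hsd3b7, was among the 15, against 9 of the 15 with the same libraries and no block. The labels give no shared source for equal numbers, so the numbers were not taken as pairing. As a hint from the data, the deviations of same-numbered pairs correlated over 0.1 in 6 of 24 pairs (median 0.0479). Of pairs with different numbers, 5 of 72 were over 0.1 (median -0.0168), and 9 of 16 libraries correlated best with their own number. Whether equal numbers share a batch was not tested. On the linear CPM scale the direction turned for Slc7a11 (11.4 CPM). The linear departure of H2-Eb2 (0.398 CPM) was also opposite in sign, but the level expected there was negative (-0.344 CPM), so that sign was fixed in advance. For the difference between cohorts, limma voom called 4 genes and DESeq2 322. Depth limits Fgf11, Anxa2, Ocln and Ccdc141, where 1 read stood for a whole group, and Slc7a11, with 6 control reads. In cohort D, Slc7a11 had 20 reads in Control(D) and 5 in Ccnd1.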

Other observations

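Other gene groups of translation and respiration had small negative interactions. These 2 lists were chosen after their values were seen. Of 81 cytosolic ribosomal protein genes measured, 78 were negative (50.1% of all genes were) and 40 were lower at an unadjusted p under 0.05 (5.68% of all genes were), with 0 called by edgeR (2 by DESeq2, 1 by limma voom) and a median of -0.53, between -0.62 and -0.40 when any 1 library was left out. Their medians against Control(M) were 0.30 with MMSET, 0.46 with Ikk2ca and 0.27 with both. All 13 measured protein genes of the mitochondrial genome were negative, 11 with an unadjusted p under 0.05 and 0 called by edgeR (3 by DESeq2, 0 by limma voom), with a median of -0.69, between -0.83 and -0.57 when any 1 library was left out. Against Control(M) their medians were 0.07 with MMSET, 0.02 with Ikk2ca and -0.64 with both.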
